A study of Mus musculus with 9 samples.

Results

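The exons described here are cassette exons of 52 nt or more that N2A cells, a mouse neuroblastoma line, mostly skip when no gene is targeted. They were chosen by their PSI, the percentage of junction reads of an exon that show it spliced in, which had to be 10 or less after transfection of a non-targeting pool, with at least 20 reads across the exon's junctions in every library of the experiment. In the first experiment 5260 exons met this rule, out of 33108 exons of this length with the reads and out of 54141 cassette exons in the table. In the second experiment, where the mean of both control libraries was used, 5037 of 31584 did. The lists share 4764 exons and together hold 5533. Since the control PSI chose the exons, a knockdown set against that same control is given as a description, with no test.

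The groups were transfected with SMARTpool small interfering RNAs and harvested 48 hours later, and polyA RNA was sequenced. The first experiment has 1 library each of a knockdown of Mbnl1 together with Mbnl2, a knockdown of Nacc1 and a non-targeting pool. The second has 2 libraries each of a knockdown of Srrm4, a knockdown of Zfp871 and a non-targeting pool, named by the column letters a and b. No label ties the replicates to separate cultures, so the spread behind the p-values may be a technical one. They give TriZol or a Qiagen kit for the extraction, not which library had which.

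A cassette exon is skipped when the splicing machinery joins its neighbours directly. Splice sites that are weak, or that a protein covers, keep an exon out, and many exons of this kind hold an early stop or shift the reading frame, so that a transcript which takes them up can be degraded by nonsense-mediated decay. Muscleblind proteins (Mbnl1 and Mbnl2) bind YGCY motifs in RNA, where Y is C or T in the DNA letters, and can repress or promote an exon depending on where they bind. Srrm4 is a neural splicing activator known for microexons, which are shorter than the exons described here. Nacc1 is a BTB-domain transcriptional regulator and Zfp871 a zinc finger protein.

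Sequences are shown for all 9 exons that left silence in a knockdown and that matched a wholly coding exon of an annotated transcript, so that the reader can see what enters the message. They come from the GENCODE transcripts on GRCm38, matched by chromosome, strand, exon length and the lengths of both flanking introns, and capitals mark every YGCY (TGCT or TGCC and CGCT or CGCC) on the strand of the transcript. Released under Mbnl knockdown were the exons of Tpm1 (chr9:67029664-67029742, minus strand), Actn4 (86 nt, chr7:28909903-28909988, and 66 nt, chr7:28895121-28895186, minus strand), Clip1 (chr5:123635174-123635278, minus strand) and Abi2 (chr1:60450170-60450253, plus strand). Released under Srrm4 knockdown were those of Unc5c (chr3:141786857-141786913, plus strand), Arfgap1 (chr2:180979661-180979720, plus strand), Cacnb1 (chr11:98011343-98011497, minus strand) and Pcgf5 (chr19:36450564-36450623, plus strand).
Tpm1: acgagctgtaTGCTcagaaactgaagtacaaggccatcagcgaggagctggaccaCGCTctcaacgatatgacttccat
Actn4, 86 nt: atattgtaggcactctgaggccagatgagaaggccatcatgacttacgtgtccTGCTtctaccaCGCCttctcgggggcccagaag
Actn4, 66 nt: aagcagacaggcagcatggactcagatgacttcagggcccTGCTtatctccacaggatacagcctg
Clip1: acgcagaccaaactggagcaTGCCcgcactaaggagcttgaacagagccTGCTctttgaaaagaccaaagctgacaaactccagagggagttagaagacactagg
Abi2: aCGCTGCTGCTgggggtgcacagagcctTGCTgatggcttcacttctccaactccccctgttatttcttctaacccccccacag
Unc5c: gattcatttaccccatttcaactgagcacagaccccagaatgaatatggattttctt
Arfgap1: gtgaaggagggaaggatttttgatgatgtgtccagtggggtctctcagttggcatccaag
Cacnb1: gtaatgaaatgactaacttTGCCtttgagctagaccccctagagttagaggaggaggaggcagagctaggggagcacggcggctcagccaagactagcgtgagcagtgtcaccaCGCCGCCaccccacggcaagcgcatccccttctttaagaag
Pcgf5: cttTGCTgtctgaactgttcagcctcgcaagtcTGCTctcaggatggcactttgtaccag

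The Abi2 exon holds 4 of these motifs, 3 of them overlapping at its start. Of 4100 annotated longer exons within 10 nt of its length, 65.4% hold at least 1 motif and 4.66% hold 4 or more. The Tpm1, 86-nt Actn4 and Clip1 exons hold 2 motifs each, a number that 29.2%, 34.2% and 43.9% of exons of like length reach or pass, and the 66-nt Actn4 exon holds 1, as 54.1% do. Of the exons released under Srrm4 knockdown, that of Cacnb1 holds 3 motifs and that of Pcgf5 holds 2, numbers that 43.5% and 18.8% of exons of like length reach or pass. The Unc5c and Arfgap1 exons hold none, where 50.6% and 51.7% of exons of like length hold 1 or more. Exons with and without the motif were thus released under Srrm4 knockdown. These are matches of letters within the exon only, and the introns beside it were not analysed here.

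Total gene counts were 44186088 to 63715449 per library, and the median silent exon had 108 to 159 reads per library. Of 10 sympathetic neuroblastoma markers 9, among them Phox2a, stood at 10 or more CPM (gene counts scaled to the library total) in all 9 libraries. Fibroblast, glial, epithelial and immune markers summed to at most 7.95 CPM in any library, against 2570 or more for the neuroblastoma markers. Each targeted gene was lower in its knockdown. Mbnl1 had 46.6 CPM and Mbnl2 18.7 CPM in the double knockdown, against 123 and 64.8 CPM in control, and Nacc1 had 51.1 CPM after its knockdown, against 206 CPM in control. Srrm4 had 29.0 and 25.5 CPM after its knockdown, against 67.8 and 95.6 CPM in control, and Zfp871 had 7.26 and 4.99 CPM after its knockdown, against 17.9 and 25.9 CPM in control. Srrm4 also had 45.4 and 52.8 CPM in the Zfp871 knockdown (log2 fold change -0.73, SE 0.19, edgeR quasi-likelihood test, Benjamini-Hochberg adjusted p = 0.099), and Mbnl1 had 81.3 CPM in the Nacc1 knockdown.

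The silent exons lie in 3493 genes in the first experiment and 3355 in the second, at most 8 in a gene, as in Atp11b, which encodes a lipid flippase. Of them 26.0% and 27.4% matched a GENCODE internal exon of the same length with flanking introns of the same lengths, against 72.7% and 72.1% of exons with a control PSI over 10 and under 90. Of all silent exons in the first experiment 6.56% are coding in an annotated transcript and 8.65% occur only in transcripts annotated for nonsense-mediated decay. Among exons with intermediate control PSI these shares are 49.6% and 4.79%, and among exons with a control PSI of 90 or more 78.8% and 0.987%. A length divisible by 3 was found in 37.4% of silent exons, in 44.7% of intermediate exons and in 38.6% of included exons, and the second experiment gave 37.8%, 46.6% and 38.3%.

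Many were never seen to be used. A PSI of 0 in every library was recorded for 505 exons in the first experiment and 357 in the second, and 243 exons had 0 inclusion reads in all 9 libraries. The deepest of these was a 192-nt exon of Shfm1, a proteasome subunit gene (mm9 chromosome 6, 6515266 to 6515457), with 39281 skipping reads, which allows a PSI of up to 0.00764% if 3 inclusion reads are taken as the floor. Exons of Ccna2 (cyclin A2), Chchd3, Psmd4 and Ap2a2 followed with 11382 to 7072 skipping reads and limits of 0.0264% to 0.0424%. Limits and intervals here cover counting error only, since the reads carry no molecular identifiers and several can stem from 1 molecule.

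Few silent exons left silence in any knockdown. An exon was counted as released when its PSI was at least 10 points higher than in its control and, with 1 library a group, when the 95% exact (Clopper-Pearson) intervals of inclusion did not overlap, or, with 2 libraries a group, when both knockdown libraries lay above both control libraries. By this rule 11 of 5260 silent exons were released under Mbnl knockdown, which is 0.209%, beside 0.368% of all longer exons higher by the same rule. Nacc1 knockdown released 3 (0.057%), beside 0.347% of all longer exons. Srrm4 knockdown released 13 of 5037 (0.258%), beside 0.823%, and Zfp871 knockdown 5 (0.0993%), beside 0.459%. The rules differ between experiments, so the counts of one cannot be ranked against those of the other. No exon was released in both experiments, out of 12 in the first and 18 in the second. Of these 30 exons 14 were silent in both controls, so the others could not be counted in both. With released shares of 0.258% or less, an overlap of 0 is near the background and nothing is read from it.

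With a limit of 20 points in the same rule 5 silent exons passed under Mbnl knockdown (0.0951%) and 1 under Nacc1 knockdown (0.019%), beside 1.38% and 0.908% of exons with a control PSI over 10 and under 90. None passed under Srrm4 or Zfp871 knockdown, beside 0.823% and 0.518% of those exons. With a limit of 5 points, chosen after the data were seen, 16, 8, 70 and 31 silent exons passed under Mbnl, Nacc1, Srrm4 and Zfp871 knockdown. These are 0.304%, 0.152%, 1.39% and 0.615% of silent exons, beside 3.88%, 4.35%, 18.4% and 10.6% of the exons with intermediate control PSI. At 10 points 3.05%, 3.08%, 7.53% and 4.27% of the intermediate exons passed. These are another comparison than the shares of all longer exons given at 10 points above, which were not taken at 5 or 20 points. The median difference over all silent exons was 0.0 points in each of the 4 knockdowns, as it was over all longer exons. As a measure of replicate spread, 15, 17 and 9 silent exons differed by 10 points or more between libraries a and b of the Srrm4 knockdown, the Zfp871 knockdown and the control, and of these 0, 0 and 1 had intervals that did not overlap.

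**Figure D1:**
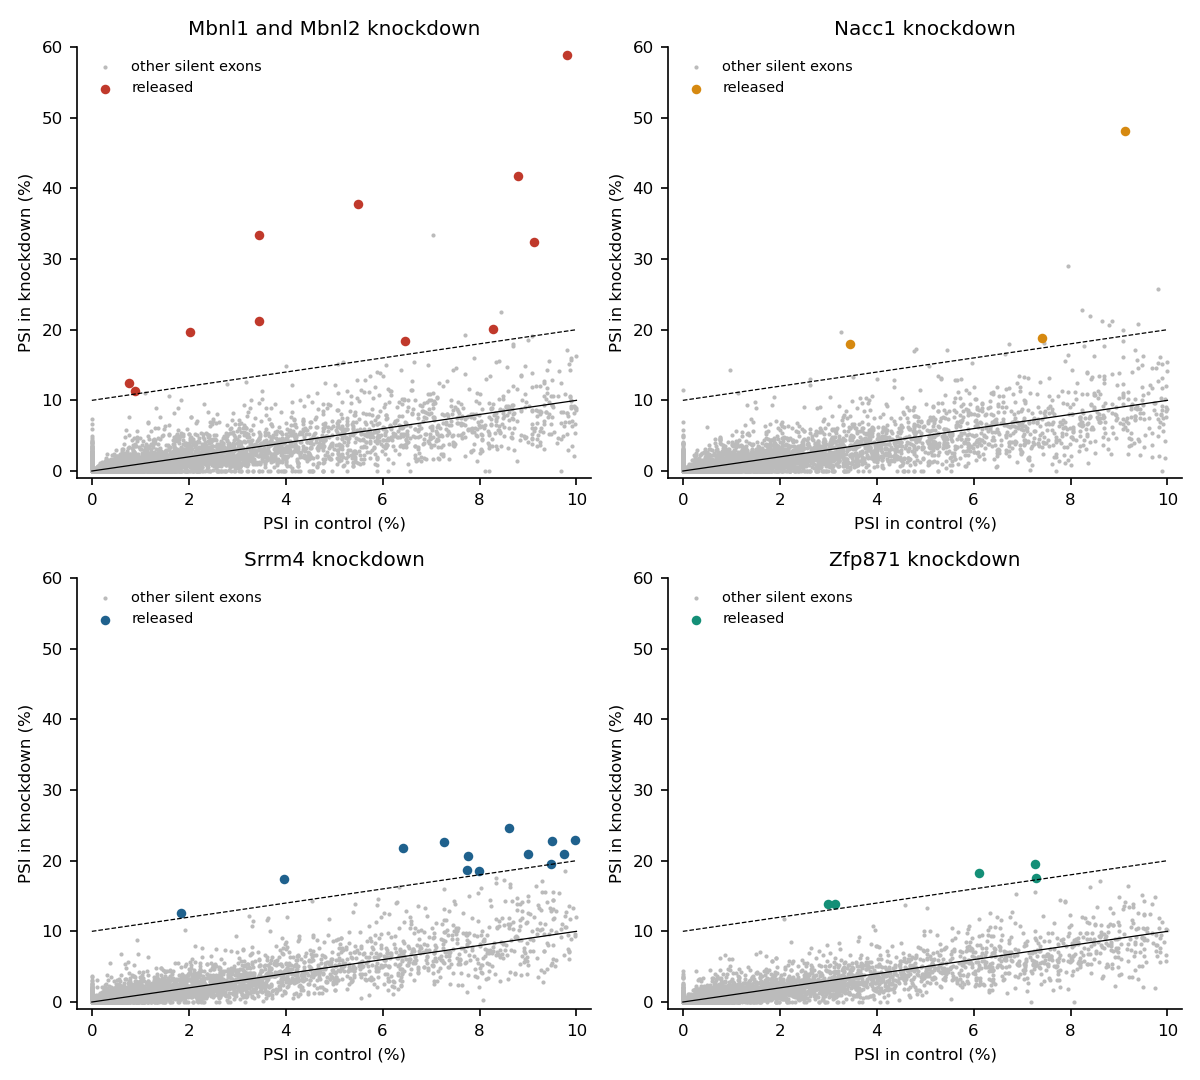
PSI of every silent exon in a knockdown (vertical axis, percent) against PSI in its own control (horizontal axis, percent; means of 2 libraries in the second experiment), with 1 panel per knockdown. The solid line marks equal PSI and the dashed line 10 points more. Coloured points are the 11, 3, 13 and 5 released exons, and grey points above the dashed line are exons whose intervals or libraries overlapped, 7 of which are in the Mbnl panel and 18 in the Nacc1 panel.

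Exons of Tpm1, Actn4, Abi2 and Clip1 were among the 11 released under Mbnl knockdown. These genes encode proteins of the cytoskeleton or its partners. The share of such genes among all host genes was not counted, so nothing is read from this. The 79-nt exon of Tpm1 (mm9 chromosome 9, 66877471 to 66877549), a tropomyosin that winds along actin filaments, had a PSI of 37.8% (95% interval 31.5 to 44.3, 233 reads) in the Mbnl knockdown and 8.44% (4.99 to 12.8) in the Nacc1 knockdown, against 5.49% (3.45 to 8.32, 380 reads) in control. It encodes the carboxyl end of the tropomyosin made in striated muscle. In the second experiment it stayed between 2.96% and 8.36% in all 6 libraries.

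Actn4, which encodes the actin cross-linker alpha-actinin, had 2 released exons. Its 86-nt exon (mm9 chromosome 7, 29694922 to 29695007) stood at 33.3% (29.9 to 37.0) in the Mbnl knockdown and 18.0% (15.4 to 20.8) in the Nacc1 knockdown, against 3.45% (2.26 to 5.08) in control, with 710 to 795 reads each. Its 66-nt exon (29680140 to 29680205) stood at 20.1% (17.3 to 23.4) in the Mbnl knockdown and 17.7% (15.3 to 20.4) in the Nacc1 knockdown, against 8.27% (6.52 to 10.4) in control; the gain of 9.4 points under Nacc1 knockdown was just short of the rule. The 66-nt exon was less silent in the second experiment, with 13.9% and 13.5% in its control libraries. The 84-nt exon of Abi2, an Abl interactor in the WAVE complex that drives actin branching, stood at 19.6% (14.7 to 25.6) in the Mbnl knockdown and 6.62% (2.97 to 12.9) in the Nacc1 knockdown, against 2.03% (0.37 to 5.13) in control.

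A 105-nt exon of Clip1, which encodes the microtubule plus-end protein CLIP-170 (mm9 chromosome 5, 124085183 to 124085287), had the largest value under Nacc1 knockdown. It stood at 32.4% (23.9 to 41.4, 119 reads) in the Mbnl knockdown and 48.2% (40.7 to 55.6, 183 reads) in the Nacc1 knockdown, against 9.13% (4.25 to 18.1, 83 reads) in control. The knockdown intervals overlap by less than 1 point. In the second experiment the exon lay between 10.1% and 16.1% in all libraries, so that its control mean of 15.1% was above the limit there. The only other exon released under Nacc1 knockdown was a 109-nt exon of Ccdc64 (Bicdl1 in GENCODE), a BICD-related dynein adaptor, annotated only in a transcript for nonsense-mediated decay. It stood at 9.13% (6.13 to 12.7) in the Mbnl knockdown and 18.9% (14.7 to 23.5) in the Nacc1 knockdown, against 7.42% (4.9 to 10.5) in control.

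The widest gain rested on few reads. A 128-nt exon of Dennd3, a Rab exchange factor, found only in transcripts annotated for nonsense-mediated decay (mm9 chromosome 15, 73398416 to 73398543), had 58.8% (38.8 to 77.6, 27 reads) in the Mbnl knockdown and 25.7% (10.7 to 50.2, 22 reads) in the Nacc1 knockdown, against 9.8% (2.27 to 28.2, 28 reads) in control. A 151-nt exon of Leprel2, a prolyl 3-hydroxylase of collagen, had 41.8% (29.1 to 55.9, 57 reads) in the Mbnl knockdown and 20.7% (9.05 to 35.6) in the Nacc1 knockdown, against 8.79% (48 reads) in control. The Leprel2 exon also differed between the control libraries of the second experiment, at 4.86% and 19.5%.

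The other exons released under Mbnl knockdown lay in Sft2d2, Evi5, Snap23 and Foxp1. The 105-nt exon of Sft2d2, an SFT2-family membrane protein, stood at 21.2% (13.4 to 32.1) in the Mbnl knockdown, against 3.45% (0.406 to 11.5) in control. The 147-nt exon of Evi5, a TBC-domain protein, stood at 18.4% (13.0 to 25.1) in the Mbnl knockdown and 0.62% (0.0158 to 3.43) in the Nacc1 knockdown, against 6.47% (3.0 to 11.1) in control, and spread from 1.83% to 13.7% over the libraries of the second experiment. The 93-nt exon of Snap23, a SNARE of the plasma membrane, also known only from a decay transcript, stood at 12.4% (6.56 to 21.7) in the Mbnl knockdown against 0.77% (0.0193 to 4.18) in control. A 170-nt exon of the forkhead factor Foxp1 stood at 11.4% (6.05 to 20.2) against 0.9% (0.144 to 4.23). The exons of Snap23, Foxp1, Abi2 and Sft2d2 had control values of 3.45% or less and stayed at 4.24% or less in all 6 libraries of the second experiment.

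**Figure D2:**
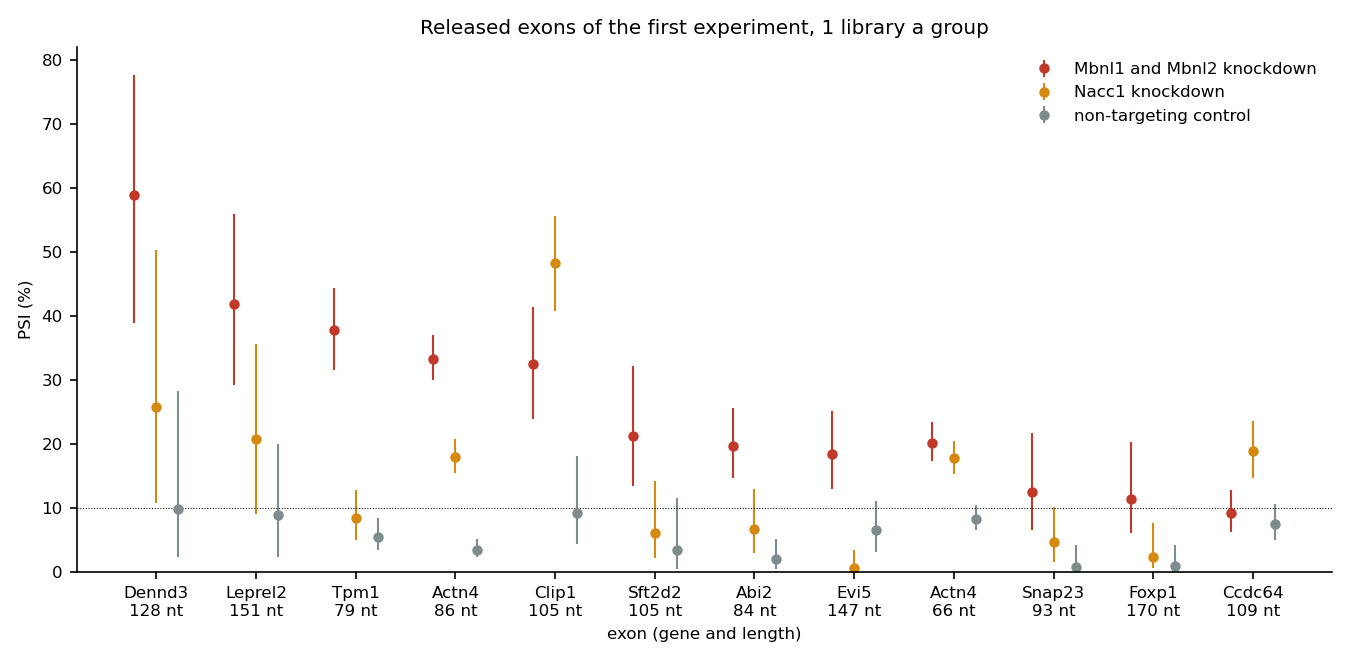
PSI (vertical axis, percent) of the 12 exons released in the first experiment, with 95% exact intervals of the inclusion reads, in the Mbnl1 and Mbnl2 knockdown, the Nacc1 knockdown and the control from left to right within each exon. Each point is 1 library and the dotted line marks the control limit of 10. The Clip1 exon is highest in the Nacc1 knockdown at 48.2%, and the Dennd3 exon has the widest interval, 38.8% to 77.6% in the Mbnl knockdown.

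The limit of 10 passes through exons that differ little. Just inside it in the first experiment were exons of Wdr33, B230206L02Rik and Sel1l3, each at 10.0% in control, with 8.63%, 8.86% and 16.2% in the Mbnl knockdown. Just outside it a 126-nt exon of Fmnl2, a formin that elongates actin filaments, stood at 45.1% (39.3 to 51.1) in the Mbnl knockdown and 17.8% (13.5 to 22.6) in the Nacc1 knockdown, against 10.03% (7.01 to 13.8) in control. The exons of Tipin and 4930430F08Rik stood at 8.62% and 7.59% in the Mbnl knockdown against 10.05% each in control. In the second experiment the means just inside belonged to 9330159F19Rik, Zc3h4 and Zfp236, at 10.0%, 9.975% and 9.965%, and those just outside to Nop58, Mycbp2 and Plekhm2, at 10.025%, 10.055% and 10.06%. The exons of Nop58, Mycbp2 and Plekhm2 averaged 12.2%, 3.7% and 15.6% in the Srrm4 knockdown.

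The 13 exons released under Srrm4 knockdown reached means of 12.6% to 24.6%. The 154-nt exon of Auh, a mitochondrial hydratase of leucine breakdown (mm9 chromosome 13, 53008277 to 53008430), had the largest gain, 15.98 points. It stood at 31.2% and 17.9% in the Srrm4 knockdown, with 18.3% and 15.8% under Zfp871 knockdown, against 10.4% and 6.79% in control, and at 7.64% to 9.22% in the 3 libraries of the first experiment. All 4 knockdown libraries lay above both controls. The 60-nt exon of Arfgap1, which promotes GTP hydrolysis by Arf1 at the Golgi, stood at 19.3% and 26.1% in the Srrm4 knockdown and 14.5% and 16.5% in the Zfp871 knockdown, against 7.41% and 7.14% in control. Its control value in the first experiment was 12.7%, between those of the control and of the Zfp871 knockdown here.

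Exons of Unc5c, Cabp1 and Cacnb1 were also released under Srrm4 knockdown. The 57-nt exon of Unc5c, a netrin receptor in axon guidance (mm9 chromosome 3, 141449821 to 141449877), averaged 22.8% ± 2.33 in the Srrm4 knockdown and 10.4% ± 0.587 in the Zfp871 knockdown, against 9.5% ± 1.21 in control (SD, n = 2 each). The 180-nt exon of Cabp1, a neuronal calcium-binding relative of calmodulin (mm9 chromosome 5, 115630801 to 115630980), averaged 20.7% ± 3.51 in the Srrm4 knockdown and 6.28% ± 0.106 in the Zfp871 knockdown, against 7.76% ± 1.22 in control. In both exons the Srrm4 knockdown libraries stood apart from the other 4, which lay at 10.8% or less. In the first experiment the Unc5c exon stood at 13.4% (9.72 to 17.6) in the Mbnl knockdown and 20.4% (16.4 to 24.9) in the Nacc1 knockdown, against 10.5% (7.44 to 14.8) in control, just above the limit. The 155-nt exon of Cacnb1, a calcium channel subunit, stood at 14.8% and 22.3% in the Srrm4 knockdown and 12.2% and 12.5% in the Zfp871 knockdown. Its controls stood at 6.44% and 9.54%, and the control of the first experiment at 18.2%.

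Several of the remaining exons had other control values in the first experiment. A 919-nt exon of Metap1d, a mitochondrial methionine aminopeptidase, stood at 9.6% and 15.6% in the Srrm4 knockdown against 1.22% and 2.48% in control, but at 9.3% in the control of the first experiment. Exons of the zinc finger genes Zbtb24 (81 nt) and Zc3h4 (62 nt) averaged 17.5% ± 0.643 and 22.9% ± 2.47 in the Srrm4 knockdown against 3.97% ± 1.46 and 9.97% ± 0.304 in control (SD, n = 2 each). The 71-nt exon of Idh1, cytosolic isocitrate dehydrogenase, stood at 22.5% and 19.4% in the Srrm4 knockdown against 8.0% and 10.0% in control, yet at 35.2% in the control of the first experiment. Exons of Ccdc126, Tmx2, Ubxn2b and Pcgf5, the last a Polycomb ring finger gene, gained at least 10 points each, the most in Ccdc126 with 25.4% and 18.1% in the Srrm4 knockdown against 7.94% and 4.91% in control. Of the 13 released exons 11 had a control PSI over 5, and the exon with fewest reads in a library had 21.

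Under Zfp871 knockdown 5 exons were released, none of which passed the rule under Srrm4 knockdown. As 0.258% of all silent exons were released under Srrm4 knockdown, none out of 5 is near the background. The 135-nt exon of Bcas1, a gene known from myelinating cells (mm9 chromosome 2, 170209689 to 170209823), stood at 11.8% and 16.0% in the Zfp871 knockdown and 5.88% and 5.81% in the Srrm4 knockdown, against 3.4% and 2.88% in control. This exon of Bcas1 had more reads, 126 to 182 a library, than the other 4. The 77-nt exon of Fndc3b, a fibronectin type III domain gene, stood at 25.6% and 13.4% in the Zfp871 knockdown and 18.9% and 13.2% in the Srrm4 knockdown, against 6.8% and 7.75% in control. Exons of Gas2 (147 nt), an actin-associated protein, Mbtd1 (117 nt), a histone reader, and Usp24 (60 nt), a ubiquitin protease, gained 12.2, 10.8 and 10.2 points.

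Read counts behind these exons were small. With reads summed over the libraries of a group and their intervals required to be apart, an alternative added after the data were seen, 5 exons were released under Srrm4 knockdown and 1 under Zfp871 knockdown. The number released under Srrm4 knockdown was 25 without knockdown library b, 20 without knockdown library a, 22 without control library a and 11 without control library b. Under Zfp871 knockdown it was 10 without knockdown library b, 5 without knockdown library a, 10 without control library a and 4 without control library b. Without a library fewer had to be apart and a group mean changed, and the share of either was not tested.

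**Figure D3:**
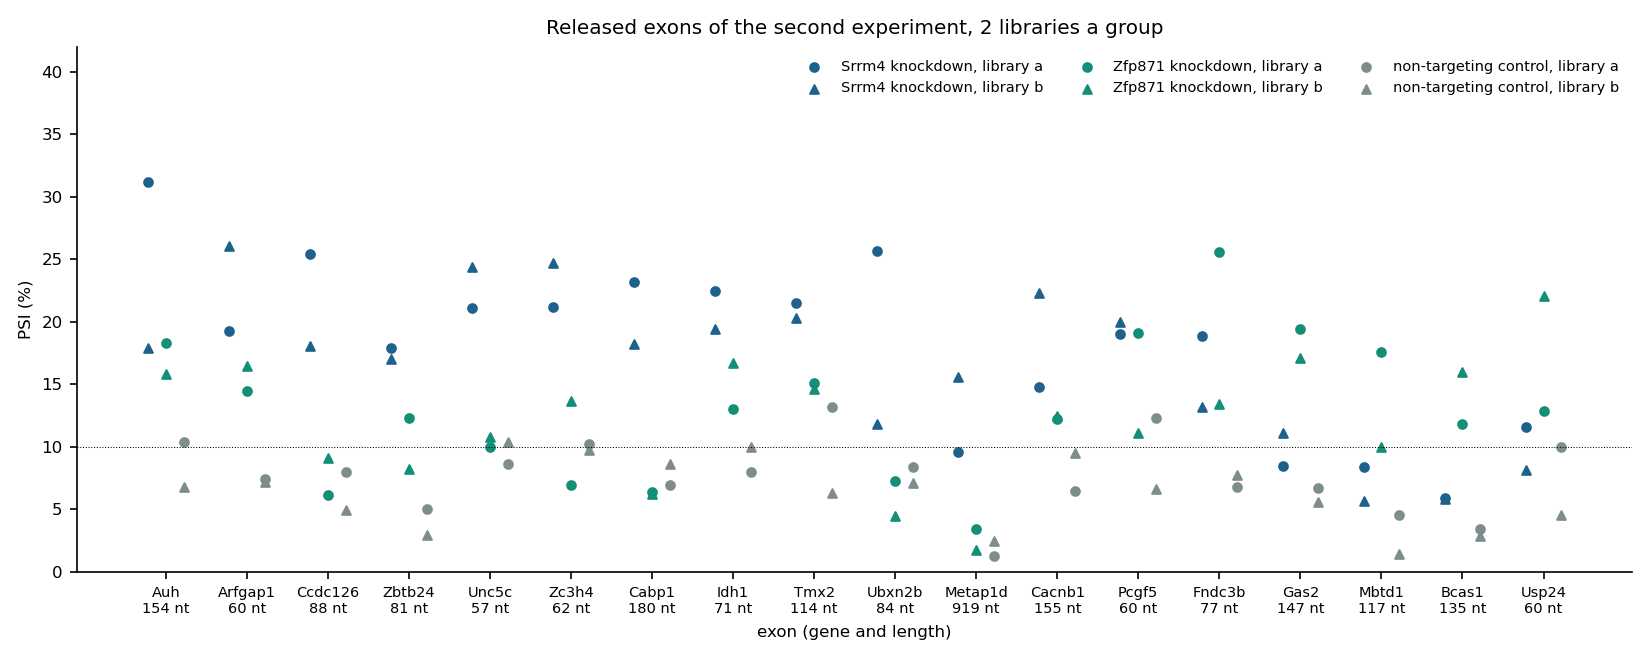
PSI (vertical axis, percent) of the 18 exons released in the second experiment, with the Srrm4 knockdown, the Zfp871 knockdown and the control from left to right within each exon. Circles are library a, triangles library b, and the dotted line marks the control limit of 10. The first 13 exons were released under Srrm4 knockdown and the last 5 under Zfp871 knockdown, and both control libraries lie below both libraries of the knockdown concerned.

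The other experiment's control offers a choice of exons that the comparison does not use. Of exons silent in the control of the second experiment, 4966 had the reads in the first, and 8 were higher and 0 lower by 10 points with separate intervals in the Mbnl knockdown against its own control. They were the exons of Abi2, Actn4 (86 nt), Evi5, Foxp1, Sft2d2, Snap23 and Tpm1 and a 631-nt exon of Dot1l, a histone methyltransferase, at 40.4% (33.2 to 47.7) in the Mbnl knockdown and 21.1% (16.2 to 26.4) in the Nacc1 knockdown against 12.3% (8.54 to 16.9) in control. Of all longer exons 0.368% were higher in that comparison and 0.622% lower. An exon with a control PSI under 10 cannot fall by 10 points. Only 202 of the 4966 stood over 10 in the first control, so few could be counted as lower in either knockdown. In the Nacc1 knockdown 2 were higher, in Actn4 and Ccdc64, and 1 was lower (beside 0.347% and 0.755% of all longer exons), an exon of the spliceosomal helicase gene Ddx46 at 7.39% (4.34 to 11.2) against 18.2% (13.6 to 23.4) in control. Each group has 1 library, so none of these differences has a replicate check.

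Of exons silent in the first control, 4848 had the reads in the second experiment. There 7 were higher and 0 lower under Srrm4 knockdown (beside 0.823% and 0.728% of all longer exons), in Auh, Ccdc126, Metap1d, Zbtb24, 2810474O19Rik, Nrf1 and Ptpla. Only 84 of the 4848 had a control mean over 10 there, so again few could be counted as lower in either knockdown. The 56-nt coding exon of Nrf1, a regulator of mitochondrial genes, stood at 29.5% and 27.5% in the Srrm4 knockdown and 21.4% and 20.6% in the Zfp871 knockdown, against 22.8% and 9.64% in control, so the controls differed from each other by more than the knockdown did from control a. Under Zfp871 knockdown 2 were higher, in Bcas1 and Fndc3b, and 1 lower (beside 0.459% and 0.836% of all longer exons). The lower one was a 102-nt exon of Aak1, a kinase of clathrin adaptors, at 1.96% and 1.19% in the Zfp871 knockdown and 8.41% and 11.4% in the Srrm4 knockdown, against 13.1% and 12.9% in control.

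None of these exons passed the edgeR quasi-likelihood test, in which a call needed a Benjamini-Hochberg adjusted p under 0.05 over 20267 cassette exons and a difference of 10 points. Under Srrm4 knockdown 2599 exons silent in the first control were tested and 0 were called, with 31 at an unadjusted p under 0.05 and a lowest adjusted p of 0.113; among all cassette exons 0 were called higher and 25 lower (0.123%). Under Zfp871 knockdown 0 were called, with 23 at an unadjusted p under 0.05 and a lowest adjusted p of 0.566, and 0 among all cassette exons. Evenly spread p-values would put more than 31 and 23 of 2599 under 0.05, so this test was cautious here. Its 0 calls, here and below, do not show that no exon changed. By limma on the logit of PSI 0 were called in either, with 173 and 177 at an unadjusted p under 0.05. The likelihood ratio test, more permissive than the quasi-likelihood test, put 132 and 120 at an unadjusted p under 0.05. It called 0 under Srrm4 knockdown, where it called 0.271% of all cassette exons higher and 1.12% lower. Under Zfp871 knockdown it called 2. These were Bcas1, higher by 10.79 points (edgeR adjusted p = 0.00567, against 0.888 by quasi-likelihood), and Aak1, with a difference of -11.46 points (0.0236, against 0.888). Among all cassette exons that test called 0.0937% higher and 0.819% lower in the same comparison.

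Smaller shifts of silent exons were called once the 10-point limit was dropped from the likelihood ratio test, a choice made after the data were seen. Under Srrm4 knockdown it called 6 exons higher and 5 lower, 0.423% of the 2599, beside 3.29% of all cassette exons (1.06% higher, 2.23% lower), and the quasi-likelihood test called 0. The lowest adjusted p, 1.06e-10, belonged to a 54-nt exon of Clta, clathrin light chain a, which moved further into silence. It stood at 3.58% and 3.62% in the Srrm4 knockdown and 3.54% and 3.55% in the Zfp871 knockdown, against 9.63% and 8.78% in control, on 1006 to 1435 reads per library. In the first experiment it stood at 15.1% in the Mbnl knockdown and 16.1% in the Nacc1 knockdown, against 9.84% in control.

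Of the other 4 exons that fell under Srrm4 knockdown by this test, 2 lay in Snap25 and Stx1a. A 118-nt exon of Snap25, a SNARE of neurotransmitter release, stood at 2.69% and 3.33% in the Srrm4 knockdown against 8.99% and 15.0% in control (edgeR likelihood ratio test, adjusted p = 0.000553), and a 120-nt exon of its partner Stx1a, syntaxin 1A, at 1.34% and 1.16% against 3.75% and 5.4% (adjusted p = 0.0353). Exons of Peg3 and 2510039O18Rik were the other 2 that fell. Those that rose lay in Rab6, a Golgi GTPase, in the RNA-binding genes Rbm39 (72 nt and 55 nt) and Rbfox2, in 1110051M20Rik and in Sars. Sars is the seryl-tRNA synthetase gene. The test took an exon with a PSI of 2 to 98 in at least 1 library. The exons of Rab6, Rbfox2 and Rbm39 (55 nt) met this only in the Srrm4 knockdown, where they were high. Their calls, and the count of higher exons that holds them, are therefore a description. The 72-nt exon of Rbm39 stood at 5.07% and 5.14% in the Srrm4 knockdown and 2.67% and 2.65% in the Zfp871 knockdown, against 2.78% and 2.36% in control (adjusted p = 5.41e-05).

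Under Zfp871 knockdown the same test called 5 exons higher and 3 lower, 0.308% beside 1.94% of all cassette exons (0.36% higher, 1.58% lower). Besides Bcas1 those that rose were exons of Fkbp1a, Eif5a, Ywhag and Adam23, with gains of 0.91 to 4.07 points. The exons of Fkbp1a and Ywhag entered the test only through the Zfp871 knockdown, where they were high, so their calls are a description. An exon of Fkbp1a, an immunophilin gene, stood at 2.88% and 2.85% in the Zfp871 knockdown and 1.51% and 1.74% in the Srrm4 knockdown, against 1.71% and 1.66% in control, on 3246 to 4679 reads per library. Clta, Aak1 and a 144-nt exon of Tcf20 fell.

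Knockdowns could also be set against each other without their control. By the rule of size and separate intervals the Nacc1 knockdown was higher than the Mbnl knockdown in 0 silent exons, beside 0.438% of all longer exons, and lower in 4, beside 0.516%. The 4 were those of Abi2, Actn4 (86 nt), Evi5 and Tpm1. Where the Tpm1 exon stood at 8.44% in the Nacc1 knockdown against 37.8% in the Mbnl knockdown, the exon of Clip1 at 48.2% against 32.4% did not pass the rule.

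The Zfp871 knockdown was higher than the Srrm4 knockdown in 1 silent exon, beside 0.513% of all longer exons, and lower in 8, beside 1.1%. The one that was higher, a 234-nt exon of the spectraplakin gene Dst, stood at 8.67% and 18.1% in the Zfp871 knockdown against 2.12% and 3.27% in the Srrm4 knockdown. Lower were exons of Cabp1, Ccdc126, Metap1d, Ubxn2b, Unc5c and Zc3h4, all released under Srrm4 knockdown, and of Abl1 and Fars2. The edgeR quasi-likelihood test called 0 of 2507 silent exons, with 34 at an unadjusted p under 0.05 and a lowest adjusted p of 0.853, limma called 0, and the likelihood ratio test called 2 lower, beside 0.39% of all cassette exons higher and 0.444% lower. These were Unc5c, with a difference of -12.34 points (edgeR likelihood ratio test, adjusted p = 0.00873), and Cabp1, with -14.43 points (adjusted p = 0.00467). With differences of any size it called 3 higher and 8 lower, 0.439% beside 2.46% of all cassette exons (1.01% higher, 1.45% lower). Among them the exons of Fkbp1a, Ywhag, Rab6 and Rbm39 (55 nt) entered the test only through the knockdown in which they were higher. The Tpm1 exon was among the lower ones. It stood at 2.96% and 4.16% in the Zfp871 knockdown against 6.8% and 8.36% in the Srrm4 knockdown (edgeR likelihood ratio test, adjusted p = 0.0367).

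Genes for splicing regulators are known to hold poison exons, which lead a transcript into decay. SR proteins and relatives held 29 silent exons in 15 genes in the first experiment and 30 in the second, of which 0 were released in any knockdown. Of all silent exons 0.209%, 0.057%, 0.258% and 0.0993% were released under Mbnl, Nacc1, Srrm4 and Zfp871 knockdown, so a count of 0 in a list of this size is near the background. The largest gain was 8.1 points for a 174-nt exon of Srsf4, at 14.3% and 19.2% in the Srrm4 knockdown and 10.3% and 11.6% in the Zfp871 knockdown, against 7.72% and 9.53% in control. HnRNP and other RNA-binding regulators held 68 and 70 silent exons with 0 released, and the largest gain was 5.9 points for a 93-nt exon of Mbnl2 itself, at 8.33% in the Mbnl knockdown against 2.4% in control. The medians of both lists lay within 0.16 points of 0, the median of all silent exons.

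Host genes of exons known to be regulated by Mbnl held 65 silent exons in the first experiment, of which 1 was released, the Foxp1 exon under Mbnl knockdown, beside 0.209% of all silent exons; nothing is read from a single exon. An exon of Arhgef7, a guanine nucleotide exchange factor, came next with 18.6% in the Mbnl knockdown and 13.9% in the Nacc1 knockdown, against 8.99% in control. Host genes of neural exons that are held down by Ptbp1 or raised by Srrm4 held 100 silent exons in the first experiment and 89 in the second, and the Tpm1 exon under Mbnl knockdown was the only one released, which is likewise 1 exon beside 0.209% of all silent exons in that knockdown. Their median difference was 0.0 points under Srrm4 knockdown and their largest gain there 3.6 points, also in Tpm1, at 6.8% and 8.36% in the Srrm4 knockdown against 3.6% and 4.27% in control. The lowest difference there was -5.6 points, that of the Clta exon described above.

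In the second experiment genes that hold silent exons were called for expression about as often as all genes. Under Srrm4 knockdown 176 of 3355 such genes were called by the edgeR quasi-likelihood test, 41 higher and 135 lower, which is 5.25% beside 4.7% of all 12378 tested genes (1.41% higher, 3.29% lower). Under Zfp871 knockdown 98 were called, 24 higher and 74 lower, which is 2.92% beside 2.89% (0.751% higher, 2.14% lower). These counts rest on all 6 libraries: leaving out any 1 of them gave 0 to 45 host genes under Srrm4 knockdown, the most without Srrm4 knockdown library a, and 0 to 63 under Zfp871 knockdown, with 63 and 57 without Srrm4 knockdown libraries a and b. In the first experiment 3 host genes, with no replicate check, had a log2 fold change of 1 or more in size under Mbnl knockdown, 0.0861% beside 1.02% of all genes with 50 counts, and these were Mbnl1, Mbnl2 and Chchd3. Under Nacc1 knockdown 29 did, all lower, 0.833% beside 3.38%. In both experiments a host gene was taken in only if its silent exon had the reads in every library, knockdowns included. Other genes did not have to meet this rule, so the shares of host genes and of all genes do not compare like genes. How much of each gap comes from the rule was not tested, and nothing is read from the lower shares of host genes.

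By the edgeR quasi-likelihood test 2 host genes changed in the knockdown that released their exon, Cabp1 and Fndc3b. Without the filter on low counts Cacnb1 and Mbtd1 were called too, and DESeq2 called these and also Idh1 and Tmx2. Cabp1 had 17.9 and 17.3 CPM in the Srrm4 knockdown and 32.9 and 36.5 CPM in the Zfp871 knockdown, against 37.0 and 37.6 CPM in control (log2 fold change -1.08, SE 0.11, edgeR adjusted p = 0.0184). Fndc3b had 62.0 and 59.1 CPM in the Zfp871 knockdown and 124 and 132 CPM in the Srrm4 knockdown, against 96.5 and 99.1 CPM in control (log2 fold change -0.69, SE 0.09, edgeR adjusted p = 0.0261). Both genes were lower in both libraries. The Cabp1 call was lost without either control library, Srrm4 knockdown library b or either Zfp871 knockdown library (log2 fold change -1.05 to -1.11). The Fndc3b call was lost without either control library or either Zfp871 knockdown library (-0.65 to -0.71). Both were called with a term for the column letter (edgeR quasi-likelihood test, adjusted p = 7.89e-08 and 3.05e-06). DESeq2 also called both (adjusted p = 2.75e-13 and 7.39e-08). Of host genes with an exon released in the first experiment, Tpm1 had the largest fold change under Mbnl knockdown, at 40.7 CPM in the Mbnl knockdown and 43.6 CPM in the Nacc1 knockdown, against 70.1 CPM in control (log2 fold change -0.85 and -0.68).

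The authors' deposited table marks 8 silent exons as differentially spliced under Mbnl knockdown, 4 under Nacc1, 3 under Srrm4 and 1 under Zfp871 knockdown, all higher, by a rule that no source used here gives. Of the released exons its marks cover 6 of 11 (both Actn4 exons, Clip1, Sft2d2, Snap23 and Tpm1), 3 of 3, 3 of 13 (Arfgap1, Cabp1 and Unc5c) and 1 of 5 (Bcas1). The same table marks 1.39%, 1.56%, 0.472% and 0.377% of all longer exons.

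The share of longer exons that passed the release rule was set against their level in control. Under Srrm4 knockdown it was 0.0% of 785 exons at a control PSI of 0, 1.83% of 600 exons over 5 to 10, 4.94% of 486 exons over 10 to 20 and 14.6% of 411 exons over 40 to 60. Under Mbnl knockdown it was 0.0% of 1057 exons at 0, 0.144% of 1386 over 0 to 1, 0.825% of 727 over 5 to 10 and 4.8% of 479 over 40 to 60. No exon with a control PSI of 0 passed the rule in any of the 4 knockdowns. An exon near full inclusion has no room for a gain of 10 points, and the control values that set these bands are also those the gains are measured from, so the shares are a description.

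**Figure D4:**
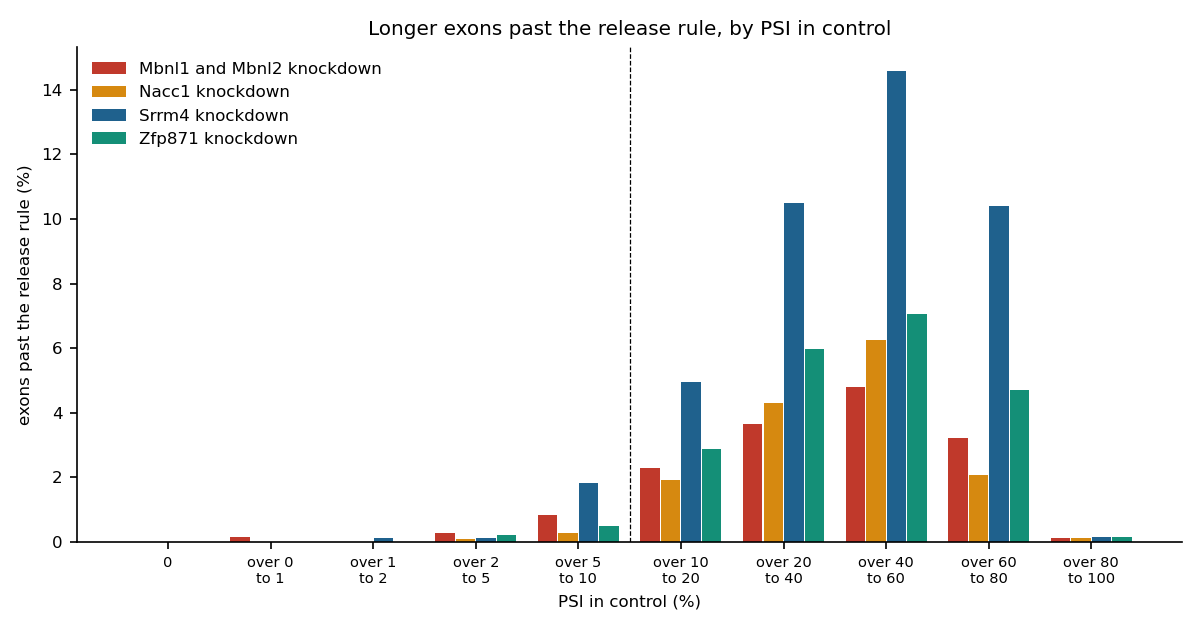
Share of longer exons that passed the release rule, a PSI higher by 10 points or more with intervals or libraries apart (vertical axis, percent of the exons in a band), by PSI in the experiment's own control (horizontal axis, percent), for the 4 knockdowns. Silent exons lie left of the dashed line. Bars peak in the band over 40 to 60, at 14.6% under Srrm4 knockdown and 7.06% under Zfp871 knockdown, and the band over 80 to 100 holds at most 0.139%.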

How the data were processed

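Splicing was quantified with vast-tools per the series design text. The deposited primary tables hold, for each library, PSI in percent and, per the file headers and values, a quality field that ends in inclusion and exclusion reads. Raw counts per gene are in the deposited expression tables. PSI of the first experiment is as the authors deposited it. In the second no column can be tied to 1 labelled replicate, so 1 measure was taken from each table, and PSI was computed from its reads and CPM from its counts. In the first experiment PSI from reads was within 0.024 points of the deposited value. Exon coordinates are mm9, and CASAVA 1.8 and edgeR are listed without a step, both per the submitters' processing notes. No aligner or vast-tools version is named there.

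The exons and gene lists were chosen with earlier results of these data known. Exons were tested in R 4.3.3 with edgeR 4.0.16 on rounded inclusion and exclusion reads, with 1 coefficient for each library and 1 for inclusion in each group, in 1 fit to all 6 libraries of the second experiment. Negative binomial dispersions had no trend and the quasi-likelihood step its default. Exons needed 10 reads in each library and a PSI of 2 to 98 in 1. Of the silent exons 2599 of 5260 and 2507 of 5037 passed. Gene counts were tested with filterByExpr and TMM factors. Alternatives used limma 3.58.1 and DESeq2 1.42.0. Fits were tested on simulated data. Of the exons named, up to 8 per knockdown were taken by PSI difference, and further released exons and those shifted by less than 10 points were named after their values were seen. Of 54141 exon rows 39631 matched 1 GENCODE exon, and fewer silent exons than the 80% needed for a check of sequence properties. Unused columns of per-library or pooled values numbered 26. Results for some genes are not reported here.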

Additional observations from a re-analysis of the deposited data

How the results depend on the processing

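Of 99 alternatives 54 gave a count within 1.5 times the reported one and none reversed a direction. Many of the 54 set a test count of 0 against 0, which says little about stability. A released exon is higher by definition, so the counts of released exons could not reverse. Most alternatives for released exons under Srrm4 knockdown moved the count beyond 1.5 times. Released exons under Mbnl, Nacc1, Srrm4 and Zfp871 knockdown numbered 5, 1, 2 and 2 with a control PSI of 5 or less and 5, 1, 0 and 0 at 20 points. With 50 reads in every library they numbered 6 under Srrm4 and 1 under Zfp871 knockdown. At 5 points, chosen after seeing the data, they numbered 8 under Nacc1, 70 under Srrm4 and 31 under Zfp871 knockdown. With intervals of summed reads, also chosen after seeing the data, the counts were 5 under Srrm4 and 1 under Zfp871 knockdown. Leaving out each library in turn gave 11 to 25 under Srrm4 and 4 to 10 under Zfp871 knockdown. Collapsing overlapping exons kept all 4 counts within 1.5 times, as did PSI recomputed from reads in the first experiment; that was not run in the second, where PSI already comes from reads.

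A replicate block by column letter, which asks for the gain within each letter, left 6 released exons under Srrm4 and 1 under Zfp871 knockdown. No source says that equal letters share a culture or day, and the differences between the letters correlated with r = 0.127, 0.132 and 0.0866 between pairs of groups. With the block as a term the quasi-likelihood test still called 0 silent exons. Host genes called numbered 1229 (36.6%) under Srrm4 and 1087 (32.4%) under Zfp871 knockdown, beside 4565 and 3854 of all 12378 tested genes. Without the block they numbered 176 and 98. The r values above are of PSI and do not speak for gene counts. In gene counts the groups shared a difference between the letters, which the main gene test left in its spread. What the letters stand for was not tested. Of the 13 and 5 exons released in these knockdowns 7 and 3 lay in called genes, and nothing is read from numbers this small.

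The likelihood ratio test called 2 exons under Zfp871 knockdown and 2 between the Zfp871 and Srrm4 knockdowns. Without the 10-point limit it called 11 under Srrm4 knockdown, 8 under Zfp871 knockdown and 11 between these knockdowns. Some of these exons entered the test only through the knockdown in which they were higher. Leaving out each library in turn gave 0 quasi-likelihood calls throughout. For exons silent in the other control, 3 under Mbnl and 0 under Nacc1 knockdown passed at 20 points. DESeq2 called 505 host genes (15.0%) under Srrm4 and 405 (12.1%) under Zfp871 knockdown, beside 1750 and 1341 of all 16027 genes. Leaving out each library in turn gave 0 to 45 host genes under Srrm4 knockdown, against 176 with all libraries, and 0 to 63 under Zfp871 knockdown, against 98. The cause of these moves was not tested, beyond the fewer libraries of a leave-one-out fit, in which a lone library is assumed to vary like the other groups. At 20 reads an exon's PSI is coarse, so a gain under 10 points was not detectable for shallow exons.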
